A study of Arabidopsis thaliana with 6 samples.

Results

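Developing seeds of the Arabidopsis thaliana line ar21 were compared with seeds of the wild type (WT) over nuclear genes, arranged by annotation family. The genes are the TAIR loci outside the plastid and mitochondrial genomes and outside the 18S rRNA locus that reached a mean of at least 10 normalised counts over the 6 libraries of the series. There were 15422 such genes, against 34001 loci in the whole table. All lines are in the Columbia-0 background. The sources used here give no allele for ar21, nor for i4g1, the other mutant line of the series. Each line had 2 libraries from biological replicates. Growth was under long days (16 hours light, 8 hours dark) at 22 °C and, at night, 17 °C, and pools of seeds were taken from siliques 13 days after flowering on the primary shoot. Nothing in these sources places the pools of 1 line on separate days or in separate plantings, so p-values measure only the spread between these pools.

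At this stage a seed holds an embryo that is greening and laying down oil and storage protein, a thin endosperm and a maternal seed coat. Ribosomal proteins join rRNA in the ribosomes of the cytosol and of the organelles, and the genes for the cytosolic ones are often regulated together. Light-harvesting proteins bind chlorophyll and carry excitation to the photosystems. Late embryogenesis abundant (LEA) proteins gather as seeds prepare for drying.

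Library totals ran from 5078206 to 6071914 reads in ar21, from 4972656 to 8435759 in i4g1 and from 3418773 to 5187867 in WT. The 18S rRNA locus took 30% and 19.8% of the reads in ar21, 11.5% and 3.90% in i4g1, and 40.8% and 60.7% in WT. This left 3414497 and 4730169 nuclear reads in the ar21 libraries, against 2805136 and 1205780 in WT. A single read is worth 2.80 normalised counts in WT replicate 2 against 0.73 in ar21 replicate 2. For ar21 replicate 1 the reads are the values divided by a step of 1.00476, and 100% of its values were whole multiples of that step. The rRNA share thus differs between the groups in every comparison below, and its part in them was not tested. The seed label was checked on marker genes. The storage protein gene CRB stood at 45770 and 55224 in ar21 and at 61878 and 52552 in WT, while CRA1, of the same family, was at 38.2 and 20.5 in ar21 against 23.2 and 47.6 in WT, and the storage protein genes CRC and SESA1 were at or near 0 in all 6 libraries. An assembled transcript listed as SESA2, another storage protein, was at 27607 and 26419 in ar21 against 31575 and 26194 in WT. How reads were divided among such related genes was not tested, and these low values are not read as absence. Of 7 markers of silique wall, leaf and shoot, CAB3 was at 0 in every library and CAB2 was not in the table. Their summed level was 10260 and 9451 in ar21 against 6040 and 6735 in WT, nearly all of it RBCS1A, a Rubisco gene also active in green embryos. Without RBCS1A the sum was 782 and 773 in ar21 against 1240 and 1008 in WT, mostly the myrosinase gene TGG1. TGG1 was lower in ar21 (703 and 701 in ar21 against 1164 and 949 in WT, log2 fold change -0.58, adjusted p = 0.0118). None of RBCS3B, NSP3 and TGG2 passed, with log2 fold changes of 0.42, 0.55 and -1.15. Summed seed coat markers were 4104 and 3871 in ar21 against 4327 and 3976 in WT, mostly TT10, and without it 267 and 274 in ar21 against 157 and 151 in WT. Of the 5, MUM2 was higher in ar21 (85.4 and 93.0 in ar21 against 9.75 and 16.8 in WT, log2 fold change 2.70, adjusted p = 0.000151). The endosperm marker EPR1 was at 82064 and 107060 in ar21 against 81308 and 101408 in WT. Of the other endosperm markers, PHE1 was at 0 except for 8.40 in WT replicate 2, and CLE8 was at 0 in all 6 libraries.

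In limma, 1362 of the 15422 nuclear genes were higher in ar21 (8.83%) and 869 were lower (5.63%) at an adjusted p below 0.05, 14.5% in all. For every called gene the 2 ar21 libraries lay on one side of both WT libraries. That separation by itself was common, at 9042 nuclear genes or 58.6%. The median log2 fold change was 0.81 among the higher and -0.74 among the lower genes, and 0.02 over all nuclear genes tested. At least 4-fold differences numbered 87 among the higher and 16 among the lower genes. The calls were fewer without ar21 replicate 1, with 335 higher and 158 lower, and without ar21 replicate 2, with 566 and 255. No called gene could change sign with either ar21 library left out, since both lay on one side of both WT libraries. In bulk seeds, fewer cells of a type and less RNA per cell cannot be told apart.

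Abundant genes were called more often. Among genes with a mean of 10 to 50 normalised counts 3.97% were higher and 2.36% lower in ar21, and at 50 to 200 these shares were 7.49% and 6.02%. From 200 to 1000 they were 17.1% and 10.3%. At 1000 and above 32.9% were higher and 8.97% lower, over 435 genes. The share called varied little by chromosome, between 13.1% on chromosome 1 and 15.4% on chromosome 4.

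eIFiso4G1 (AT5G57870, TAIR10.1 chromosome 5, 23439498 to 23443815, + strand) is a scaffold of the plant-specific cap-binding complex eIFiso4F. Its level was 116 and 123 normalised counts in the ar21 libraries, against 368 and 454 in WT. The groups did not overlap, and the log2 fold change was -1.77 ± 0.24 (SE, adjusted p = 0.000717). It ran from -1.92 to -1.62 when any 1 ar21 or WT library was left out. Its paralog eIFiso4G2 (AT2G24050) was at 201 and 231 in ar21 against 141 and 134 in WT. It had a log2 fold change of 0.64 (adjusted p = 0.0105), a call lost without ar21 replicate 1 or 2 (adjusted p up to 0.130).

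Promoters of 4 genes from families with many rises, and of LEA4-5, are printed first, since they hold the short motifs counted later. The family of LEA4-5 had the largest share of falls in limma on 6 libraries. Each promoter is the 250 bases before the annotated start, 5′ to 3′ on the strand of the gene, from RefSeq TAIR10.1. Capitals mark a telo-box (AAACCCTA), a site II element (TGGGCC or TGGGCT), a G-box (CACGTG) or an I-box (GATAAG) on either strand. RPL26B encodes a protein of the large ribosomal subunit and RPS2C one of the small subunit. AT5G24490 is annotated only as a putative ribosomal protein, grouped here with those of plastids. LHCB2.4 encodes a light-harvesting protein of photosystem II and LEA4-5 a late embryogenesis protein.
RPL26B, chr5:26938499-26938748 (- strand): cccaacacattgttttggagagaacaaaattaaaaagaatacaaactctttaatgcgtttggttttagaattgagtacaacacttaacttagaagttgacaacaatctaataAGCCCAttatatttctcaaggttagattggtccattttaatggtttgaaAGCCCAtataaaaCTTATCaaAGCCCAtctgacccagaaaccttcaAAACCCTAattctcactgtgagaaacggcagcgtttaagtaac
RPS2C, chr2:17461540-17461789 (- strand): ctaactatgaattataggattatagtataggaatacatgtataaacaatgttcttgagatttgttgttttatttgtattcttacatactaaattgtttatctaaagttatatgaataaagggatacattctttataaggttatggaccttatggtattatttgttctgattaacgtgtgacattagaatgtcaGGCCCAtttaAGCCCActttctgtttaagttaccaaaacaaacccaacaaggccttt
AT5G24490, chr5:8365351-8365600 (+ strand): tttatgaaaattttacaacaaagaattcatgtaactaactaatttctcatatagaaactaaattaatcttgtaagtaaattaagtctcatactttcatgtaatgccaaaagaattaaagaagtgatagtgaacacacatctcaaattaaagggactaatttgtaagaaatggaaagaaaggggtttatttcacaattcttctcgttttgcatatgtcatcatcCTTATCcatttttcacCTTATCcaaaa
LHCB2.4, chr3:10255656-10255905 (+ strand): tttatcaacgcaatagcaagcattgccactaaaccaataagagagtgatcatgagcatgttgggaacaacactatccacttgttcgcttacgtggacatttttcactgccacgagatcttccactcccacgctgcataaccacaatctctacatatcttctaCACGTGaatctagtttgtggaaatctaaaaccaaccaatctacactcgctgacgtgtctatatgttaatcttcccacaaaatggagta
LEA4-5, chr5:2090431-2090680 (- strand): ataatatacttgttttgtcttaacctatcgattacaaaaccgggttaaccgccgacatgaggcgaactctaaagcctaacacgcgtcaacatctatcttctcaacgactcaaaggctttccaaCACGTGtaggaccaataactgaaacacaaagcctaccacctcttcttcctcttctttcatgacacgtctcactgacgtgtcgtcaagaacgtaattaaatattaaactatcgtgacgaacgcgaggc
RPL26B holds 1 telo-box 43 to 36 bases before its start and 3 site II elements, while RPS2C holds 2 site II elements and no telo-box. AT5G24490 has 2 I-boxes within 30 bases of its start, and LHCB2.4 and LEA4-5 have 1 G-box each.

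Genes of cytosolic ribosomes stood higher in ar21 as a body. Of 107 genes tested for proteins of the large subunit, 82 rose, 0 fell and 25 did not pass, which is 76.6% against 8.83% of all nuclear genes. Their median log2 fold change was 0.67, with quartiles of 0.53 and 0.76, against 0.02 over all nuclear genes. Summed over the 107 genes, the level was 80603 and 71225 normalised counts in ar21 against 44921 and 49956 in WT. For the small subunit 44 of 56 rose, 0 fell and 12 did not pass, the median was again 0.67, and the sums were 44055 and 39688 in ar21 against 23981 and 26437 in WT. Few members passed with a 2-fold difference, 3 in the large and 4 in the small subunit, so the shift was moderate and even. No fall appeared in either subunit at an unadjusted p below 0.05 or in edgeR or DESeq2. The number of large-subunit genes called higher was 12 without ar21 replicate 1, 54 without ar21 replicate 2 and 52 without WT replicate 1. In the small subunit it was 16 without ar21 replicate 1. On 6 libraries edgeR called 81 higher in the large and 42 in the small subunit. On 5 libraries, without ar21 replicate 1, edgeR and DESeq2 called far fewer in both.

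RPL26B (AT5G67510, chromosome 5, 26937621 to 26938498, - strand) stood at 144 and 128 in ar21 against 59.7 and 70.0 in WT. Its ar21 libraries lay above both WT libraries, with a log2 fold change of 1.06 ± 0.17 (adjusted p = 0.00167). RPS15A (AT1G07770), a small-subunit gene, was at 1415 and 1258 in ar21 against 616 and 652 in WT. The groups did not overlap and the log2 fold change was 1.07 ± 0.15 (adjusted p = 0.000846). RPS2C (AT2G41840, chromosome 2, 17459685 to 17461539, - strand) was at 2832 and 2596 in ar21 against 1259 and 1322 in WT, with a log2 fold change of 1.07 ± 0.13 (adjusted p = 0.000313). RPL13AC (AT4G13170) had a log2 fold change near that of RPL26B from 81.4 and 74.7 in ar21 against 34.1 and 42.0 in WT, but its call was lost without ar21 replicate 1 or 2. RPL26B, RPS2C and RPL13AC each overlap another annotated gene. Many ribosomal proteins are encoded by near-identical paralogs, so reads may be split unevenly between copies.

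The promoters of these genes were rich in 2 of the motifs. A telo-box lay within 250 bases before to 50 after the start of 46.0% of the 163 cytosolic ribosomal protein genes, and a site II element in 79.8%. Over all promoters of the annotation the shares were 6.22% and 21.7%, and over all nuclear genes tested 5.79% and 27.9%. Within the 163 genes the motif went with little difference in fold change, since 80% of the 75 with a telo-box were called higher at a median of 0.71, and 75% of the 88 without one at a median of 0.65.

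Nuclear genes for plastid ribosomes showed the same direction. Of 30 tested, 21 rose, 0 fell and 9 did not pass, with a median log2 fold change of 0.79 and all 30 above 0. No member was lower at an unadjusted p below 0.05, in edgeR or in DESeq2. Their summed level was 6164 and 5488 in ar21 against 3063 and 3386 in WT. AT5G24490, annotated as a protein of the small plastid subunit, was at 268 and 249 in ar21 against 95.1 and 78.4 in WT. The ar21 libraries lay above both WT libraries, and the log2 fold change was 1.57 ± 0.16 (adjusted p = 0.000116). Without ar21 replicate 1 the family had 9 calls, and on 5 libraries edgeR made 10 and DESeq2 4. Site II elements lay near 46.7% of these starts and I-boxes near 43.3%. The shares were 21.7% and 14.6% of all promoters, and 27.9% and 14.7% of all nuclear genes tested.

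Other genes of translation moved less. Initiation and elongation factors had 16 of 72 higher and 1 lower, with a median of 0.17. EIF3K (AT4G33250), a subunit of initiation factor 3, was at 637 and 574 in ar21 against 371 and 319 in WT (log2 fold change 0.81 ± 0.13, adjusted p = 0.00198). Calls for these factors were 4 without ar21 replicate 1 and 6 without ar21 replicate 2, and 0 lower without either ar21 library or WT replicate 1. Of 29 nucleolar and rRNA processing genes 2 rose (6.90%, against 8.83% of all nuclear genes) and 0 fell in limma. At an unadjusted p below 0.05 there was 1 lower gene, while 24 of 29 were above 0 and the median was 0.36. These calls were 0 without ar21 replicate 1, 1 without ar21 replicate 2 and 5 without WT replicate 2, and without WT replicate 1 there were 3 higher and 1 lower. Among 30 proteasome subunits, the genes of the main protein-degrading complex, 1 rose and 0 fell, at a median of 0.14, and lower genes also numbered 0 at an unadjusted p below 0.05, in edgeR and in DESeq2. The higher count was 0 in edgeR and DESeq2 on 5 libraries, 0 without ar21 replicate 1 or 2 or WT replicate 2, and 2 without WT replicate 1.

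**Figure D1:**
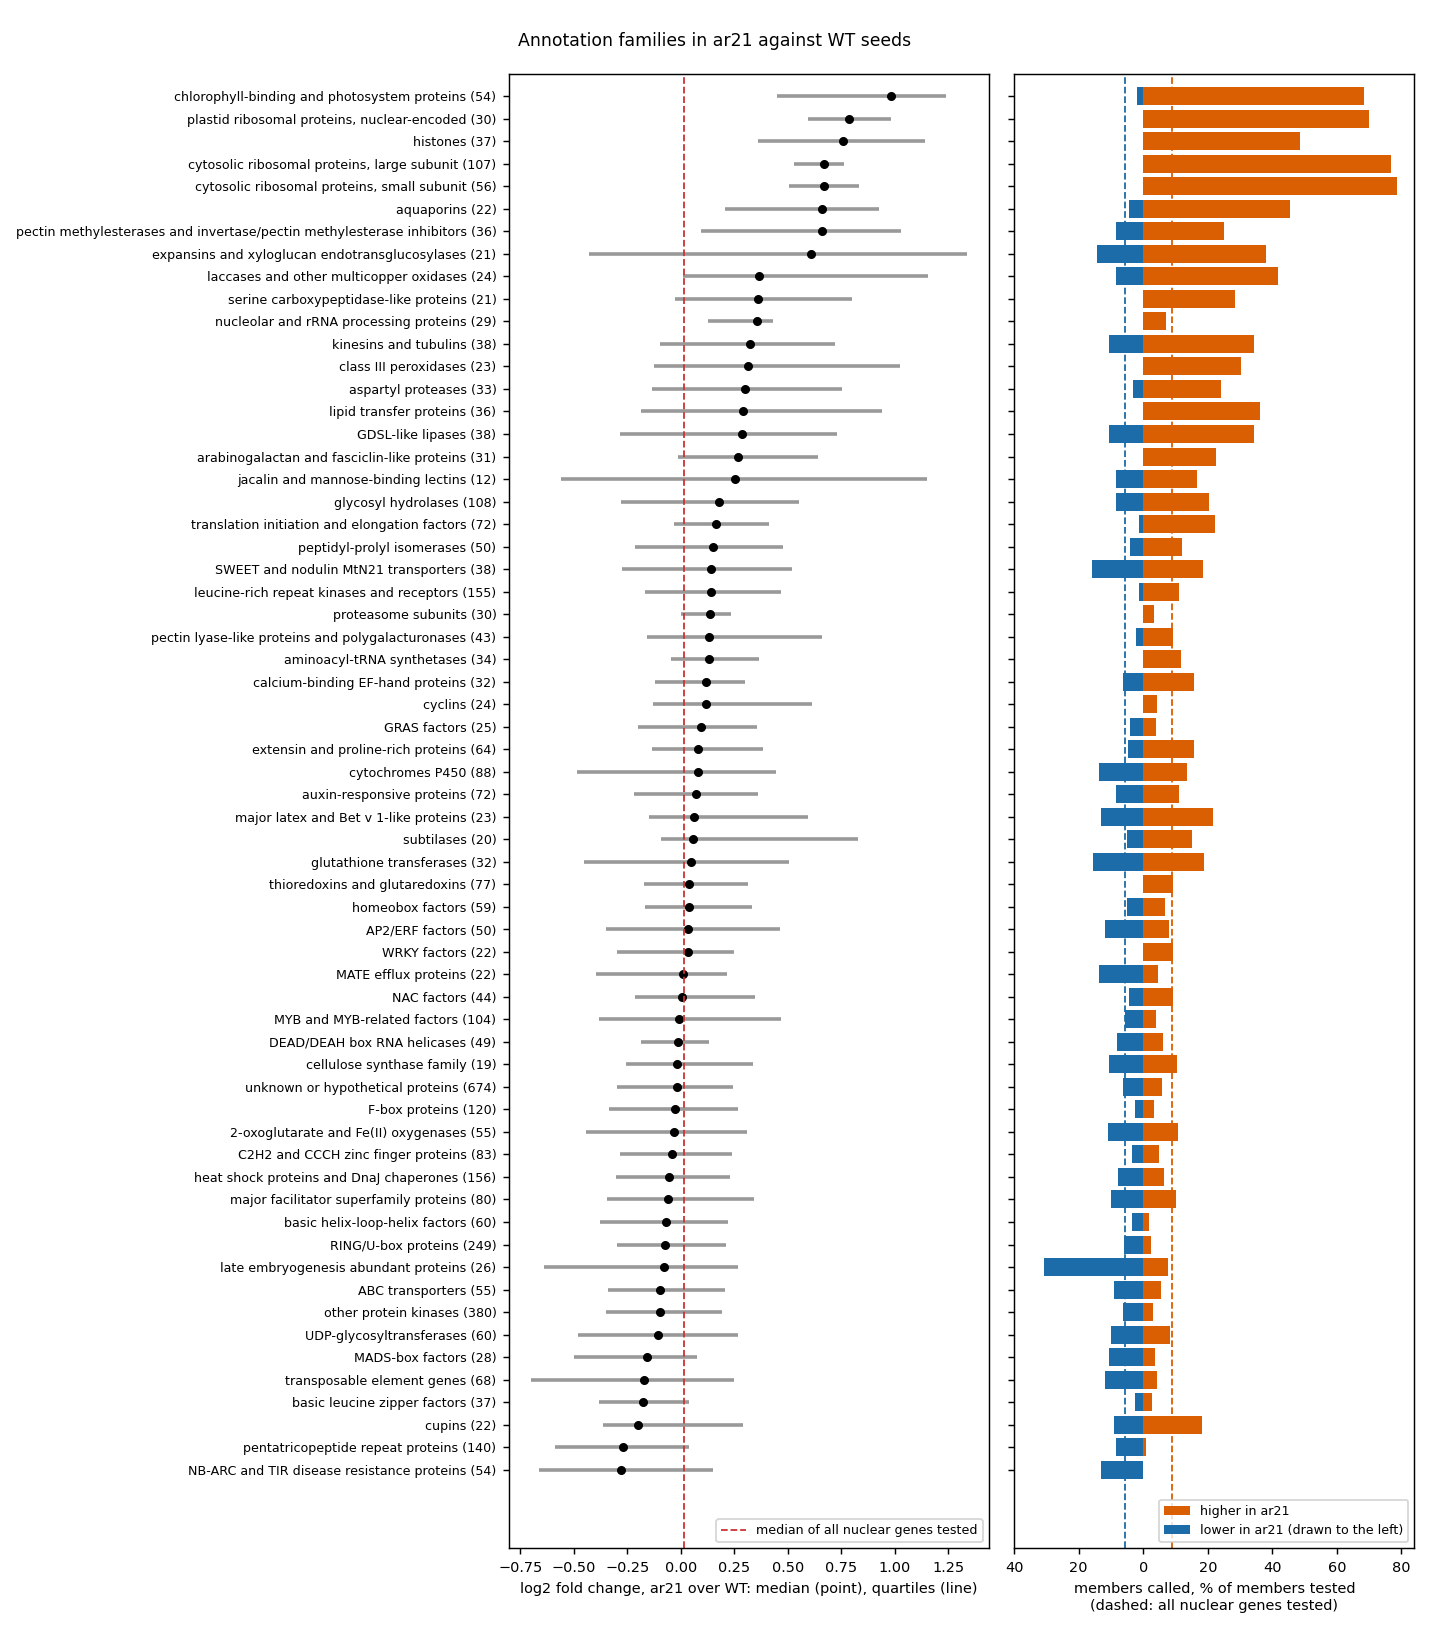
Annotation families of at least 8 tested nuclear genes, with the number tested in brackets. Left, the median (point) and quartiles (line) of the log2 fold change of ar21 over WT; right, the percent of members called higher or lower in ar21. Photosystem, ribosomal protein and histone families stand to the right of the median over all nuclear genes (0.02), and pentatricopeptide repeat and NB-ARC families to its left.

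Genes for chlorophyll-binding and photosystem proteins had the highest median of all families, 0.98. Of 54 tested, 37 rose, 1 fell and 16 did not pass, and 25 rose at least 2-fold. Their summed level was 53113 and 48202 in ar21 against 23133 and 25605 in WT. The number of rises changed little, between 30 without ar21 replicate 1 and 37 without WT replicate 1, where 2 fell. LHCB2.2 (AT2G05070), a light-harvesting protein of photosystem II, was at 673 and 514 in ar21 against 143 and 176 in WT. Its libraries did not overlap, and the log2 fold change was 1.88 ± 0.18 (adjusted p = 6.02e-05). LHCB2.4 (AT3G27690, chromosome 3, 10255906 to 10257489, + strand) stood at 94.4 and 82.7 in ar21 against 18.3 and 30.8 in WT, a log2 fold change of 1.85 ± 0.25 (adjusted p = 0.000737). The member that fell was ELIP1 (AT3G22840), an early light-induced protein made under light stress. It was at 41.2 and 54.2 in ar21 against 160 and 162 in WT, a log2 fold change of -1.75 ± 0.28 (adjusted p = 0.00192). G-boxes lay near 35.2% of the starts in this family against 7.68% of all promoters and 9.62% of all nuclear genes tested. Of the shoot and silique markers, RBCS1A was higher in ar21 (9478 and 8678 in ar21 against 4800 and 5727 in WT). The sum of the others, mostly TGG1, was lower, as given above, though RBCS3B and NSP3 stood higher without passing. The part of these markers in this family's rise was not tested.

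LQY1 (AT1G75690), a thylakoid protein that takes part in photosystem II repair, belongs by annotation to the DnaJ group. It was at 79.4 and 61.5 in ar21 against 24.4 and 19.6 in WT, with a log2 fold change of 1.63 ± 0.25 (adjusted p = 0.00155). The group of heat shock proteins and DnaJ chaperones as a whole had 10 of 156 higher and 12 lower, near the background shares of 8.83% and 5.63%. These numbers were 2 and 3 without ar21 replicate 1 and 3 and 4 without ar21 replicate 2. They were 5 higher without WT replicate 1 and 7 lower without WT replicate 2.

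Histone genes, which package DNA and are made mostly in dividing cells, had 18 of 37 higher and 0 lower, with a median of 0.76. Lower genes were also 0 at an unadjusted p below 0.05, in edgeR and in DESeq2. On 5 libraries, without ar21 replicate 1, edgeR called 2 higher and DESeq2 0. The summed level was 11781 and 10573 in ar21 against 8799 and 7942 in WT. HTA11 (AT3G54560), a variant of the H2A.Z class, was at 59.3 and 43.9 in ar21 against 14.6 and 8.40 in WT. Its log2 fold change was 2.10 ± 0.32 (adjusted p = 0.00148). The family's calls rested on both ar21 libraries, with 2 higher without replicate 1 and 8 without replicate 2. Among kinesins and tubulins, the motors and tracks of the microtubule system, 13 of 38 rose and 4 fell, with a median of 0.32. These calls were 2 higher and 0 lower without ar21 replicate 1, 6 and 1 without ar21 replicate 2, and 12 and 1 without WT replicate 1. Of 24 cyclin genes, which drive the cell cycle, only CYCB2 passed (18.1 and 19.0 in ar21 against 2.44 and 5.60 in WT), and its call was lost without ar21 replicate 1 or 2 or WT replicate 1. Higher cyclins numbered 3 without WT replicate 1.

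**Figure D2:**
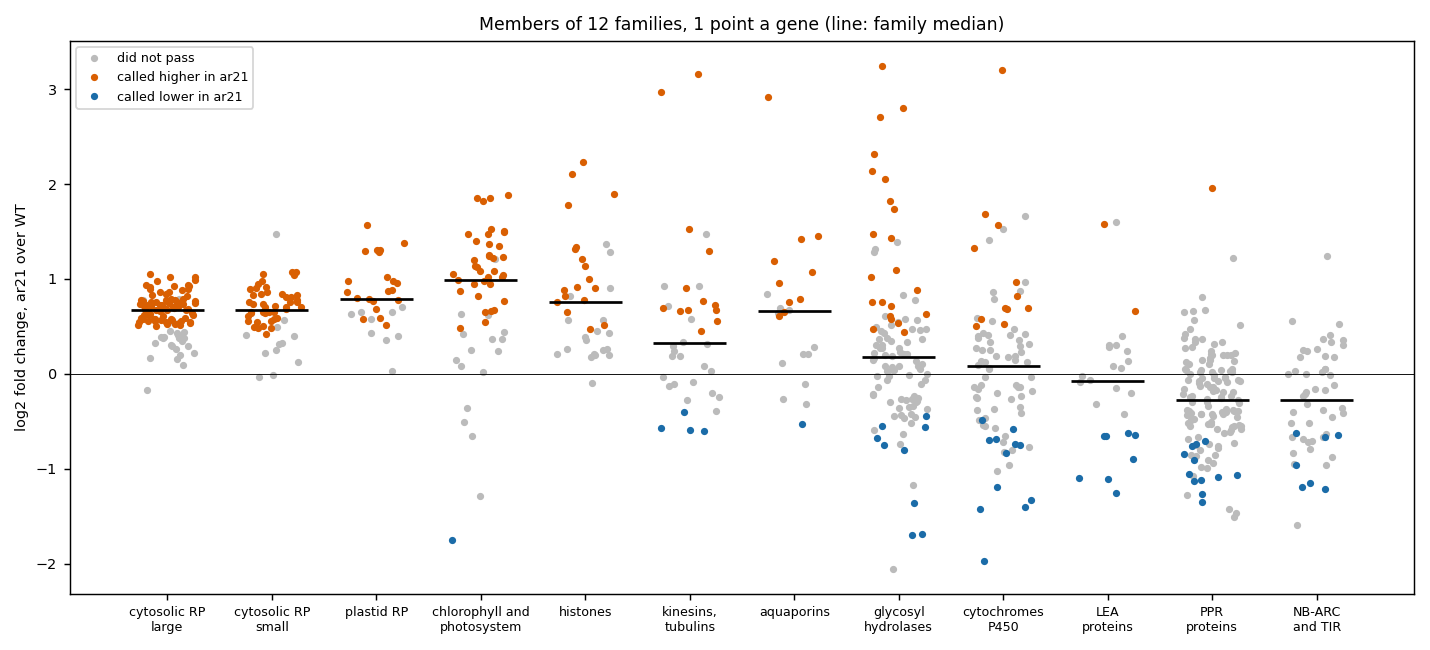
Log2 fold change of ar21 over WT for every tested member of 12 families, 1 point a gene, with a line at the family median. Cytosolic ribosomal protein (RP) genes form a tight band around 0.67, while glycosyl hydrolases and cytochromes P450 hold members called in both directions.

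Families of the cell wall held large changes in both directions. Of 36 genes for pectin methylesterases and their inhibitors, which set the charge and stiffness of pectin, 9 rose and 3 fell at a median of 0.66. The member with the largest difference, ATPMEPCRD (AT2G43050, chromosome 2, 17902370 to 17904443, + strand), was at 336 and 296 in ar21 against 11 and 25.2 in WT. The libraries were far apart, with a log2 fold change of 4.16 ± 0.29 (adjusted p = 1.63e-05). AT1G56100 was at 314 and 214 in ar21 against 31.7 and 44.8 in WT (2.75 ± 0.24, adjusted p = 4.66e-05). The other way, AT4G25260 was at 129 and 130 in ar21 against 263 and 238 in WT (-0.95 ± 0.15, adjusted p = 0.00194). No left-out library moved the counts of this family by more than 1.5 times.

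Expansins, which loosen walls, and xyloglucan endotransglucosylases, which cut and rejoin xyloglucan, had 8 of 21 higher and 3 lower. MERI5B (AT4G30270), an enzyme of the xyloglucan group, was at 282 and 206 in ar21 against 74.4 and 58.8 in WT. Its log2 fold change was 1.85 ± 0.19 (adjusted p = 0.00011). ATEXPA15 (AT2G03090), an expansin, went the opposite way, at 736 and 699 in ar21 against 1886 and 3506 in WT (-1.84 ± 0.21, adjusted p = 0.000265). The calls were 3 higher and 1 lower without ar21 replicate 1, and 1 lower without ar21 replicate 2.

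Among 108 glycosyl hydrolases, enzymes that split sugar chains, 22 rose and 9 fell at a median of 0.18. BXL1 (AT5G49360), a beta-xylosidase that trims wall polysaccharides in the seed coat and elsewhere, was at 1265 and 1050 in ar21 against 140 and 193 in WT. The libraries did not overlap, and the log2 fold change was 2.80 ± 0.15 (adjusted p = 3.25e-06). AtGH9B15 (AT4G23560), of the family that holds the endoglucanases, was at 91.4 and 83.4 in ar21 against 6.09 and 11.2 in WT (3.25 ± 0.30, adjusted p = 6.02e-05). The beta-glucosidase gene BGLU19 (AT3G21370) was at 224 and 132 in ar21 against 689 and 454 in WT, a log2 fold change of -1.70 ± 0.24 (adjusted p = 0.00089). Another of that group, BGLU3 (AT4G22100), was at 72.3 and 64.4 in ar21 against 216 and 230 in WT, a log2 fold change of -1.69 ± 0.22 (adjusted p = 0.000564). Without ar21 replicate 1 there were 8 higher and 4 lower calls, and without ar21 replicate 2 there were 12 higher. AtGH9B15 and BGLU19 each overlap another annotated gene, and the kit does not mark the strand.

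Laccases and other multicopper oxidases, among them enzymes that couple phenolic compounds in walls, had 10 of 24 higher and 2 lower. LAC3 (AT2G30210) was at 168 and 223 in ar21 against 37.8 and 70.0 in WT, with a log2 fold change of 1.89 ± 0.27 (adjusted p = 0.000957). LAC12 (AT5G05390) was at 67.3 and 87.8 in ar21 against 21.9 and 22.4 in WT (1.75 ± 0.29, adjusted p = 0.00244). ARPN (AT2G02850), the copper protein plantacyanin, was at 70.3 and 60.8 in ar21 against 156 and 140 in WT (-1.16 ± 0.19, adjusted p = 0.00205). Without ar21 replicate 2 there were 6 higher and 1 lower. Class III peroxidases, which also act on phenolics, had 7 of 23 higher and 0 lower, with 3 higher without ar21 replicate 1, and 1 lower at an unadjusted p below 0.05. On 5 libraries edgeR and DESeq2 each called 3 higher and 0 lower. Their strongest member, AT5G15180, was at 154 and 130 in ar21 against 14.6 and 22.4 in WT, a log2 fold change of 2.90 ± 0.24 (adjusted p = 3.32e-05). Arabinogalactan and fasciclin-like proteins, glycoproteins of the wall and membrane surface, had 7 of 31 higher and 0 lower, but 0 higher without ar21 replicate 1 and 2 without ar21 replicate 2. Lower genes there were 0 at an unadjusted p below 0.05, in edgeR and in DESeq2, and higher ones 3 in edgeR and 0 in DESeq2 on 5 libraries. Cellulose synthase-related genes had 2 of 19 higher and 2 lower, 10.5% each way against 8.83% and 5.63% of all nuclear genes. Among the lower was ATCSLB03 (AT2G32530), at 16.1 and 14.6 in ar21 against 54.9 and 50.4 in WT (-1.71 ± 0.30, adjusted p = 0.0032). That family had 0 higher and 1 lower call without either ar21 library, 1 higher without WT replicate 1 and 0 higher without WT replicate 2.

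Lipid transfer proteins, small proteins that carry lipids in the wall space, had 13 of 36 higher (36.1%, against 8.83% of all nuclear genes) and 0 lower. AT1G62510 was at 78.4 and 111 in ar21 against 20.7 and 11.2 in WT, a log2 fold change of 2.53 ± 0.30 (adjusted p = 0.000278). LTP10 (AT5G01870) was at 81.4 and 65.1 in ar21 against 18.3 and 11.2 in WT (2.27 ± 0.30, adjusted p = 0.000586). Without ar21 replicate 1 there were 7 higher. Lower members numbered 3 at an unadjusted p below 0.05, 1 in edgeR on 5 libraries and 0 in DESeq2, which called 8 and 4 higher. GDSL-like lipases, a large group of esterases, had 13 of 38 higher (34.2%) and 4 lower (10.5%). GLIP6 (AT1G71120) was at 824 and 666 in ar21 against 204 and 342 in WT (1.49 ± 0.20, adjusted p = 0.000634). Their calls were 5 higher and 1 lower without ar21 replicate 1, 5 and 0 without ar21 replicate 2, and 1 lower without WT replicate 2.

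Among transporters, aquaporins, which let water and small solutes through membranes, had 10 of 22 higher and 1 lower at a median of 0.66. TIP2 (AT3G26520), a channel of the vacuole membrane, was at 40.2 and 23.4 in ar21 against 3.66 and 2.80 in WT. Both WT values are 3 reads or fewer, and the log2 fold change of 2.91 ± 0.41 (adjusted p = 0.00086) is on the scale of the normalised count plus 1. PIP3 (AT4G35100), a channel of the plasma membrane, was at 430 and 386 in ar21 against 117 and 188 in WT (1.45 ± 0.21, adjusted p = 0.00091). The lower call was ALPHA-TIP (AT1G73190), the aquaporin of seed storage vacuoles, at 4904 and 5453 in ar21 against 7744 and 7183 in WT. That call was lost when any 1 of the 4 libraries was left out, and 5 aquaporins were higher without ar21 replicate 1.

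SWEET and nodulin MtN21 transporters, which move sugars and amino acids out of cells, had 7 of 38 higher and 6 lower. MTN3 (AT5G23660), known as SWEET12, a sugar exporter that feeds the embryo from the seed coat, was at 694 and 695 in ar21 against 306 and 294 in WT, with a log2 fold change of 1.21 ± 0.11 (adjusted p = 6.4e-05). AT2G39510, annotated as the amino acid transporter UMAMIT14, was at 397 and 299 in ar21 against 90.2 and 120 in WT (1.71 ± 0.17, adjusted p = 9.31e-05). AT1G68170, annotated as UMAMIT23, was at 138 and 111 in ar21 against 278 and 283 in WT (-1.18 ± 0.15, adjusted p = 0.000464). The calls were 2 higher and 2 lower without ar21 replicate 1, 4 and 3 without ar21 replicate 2, and 4 higher without WT replicate 2. In the major facilitator family SUC5 (AT1G71890), a sucrose carrier known from the endosperm, was at 153 and 124 in ar21 against 23.2 and 50.4 in WT (1.98 ± 0.29, adjusted p = 0.00119). PGP16 (AT3G28360), an ABC transporter, was at 43.2 and 52.7 in ar21 against 121 and 106 in WT (-1.23 ± 0.20, adjusted p = 0.00208).

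Late embryogenesis genes had the largest share of falls among the families in limma on 6 libraries, a rank not kept without ar21 replicate 1. Of 26 tested, 2 rose, 8 fell and 16 did not pass, and 30.8% lower compares with 5.63% of all nuclear genes. The median was only -0.08, since the members that did not pass lay on both sides of 0. Their summed level was 12344 and 12766 in ar21 against 18626 and 16678 in WT. LEA4-5 (AT5G06760, chromosome 5, 2089445 to 2090430, - strand) was at 107 and 123 in ar21 against 244 and 311 in WT. Its libraries did not overlap, and the log2 fold change was -1.26 ± 0.16 (adjusted p = 0.000499). AT3G15670 was at 2090 and 2490 in ar21 against 5229 and 4606 in WT (-1.10 ± 0.15, adjusted p = 0.000737). The numbers were 1 higher and 2 lower without ar21 replicate 1, 0 higher without ar21 replicate 2 and 5 lower without WT replicate 1. A G-box, the core of many elements that respond to abscisic acid, lay near 50% of these starts against 9.62% of all nuclear genes tested. The summed seed maturation markers were 172329 and 186340 in ar21 against 221635 and 204852 in WT, mostly OLEO1 and CRB. None of these markers passed in limma (adjusted p = 0.652 for OLEO1 and 0.753 for CRB). PAP85 lay the other way, at 22989 and 23695 in ar21 against 21253 and 20607 in WT. The part of these markers in this family's falls was not tested.

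Cupins, the fold of many storage and germin-like proteins, had 4 of 22 higher and 2 lower. GLP2A (AT5G39160), a germin-like protein, was at 1509 and 1363 in ar21 against 367 and 412 in WT, a log2 fold change of 1.88 ± 0.14 (adjusted p = 1.79e-05). AT5G39130 was at 3098 and 2899 in ar21 against 783 and 918 in WT (1.82 ± 0.13, adjusted p = 1.79e-05). The transcripts of these genes and of AT5G39190 are near-identical, so how reads fall to each copy is uncertain. AT3G04150, another germin-like gene, was at 199 and 221 in ar21 against 512 and 428 in WT (-1.16 ± 0.14, adjusted p = 0.000341). The lower count was 1 without ar21 replicate 1, ar21 replicate 2 or WT replicate 1.

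Among proteases, aspartyl proteases had 8 of 33 higher and 1 lower, and serine carboxypeptidase-like genes 6 of 21 higher and 0 lower. AT1G09750, an aspartyl protease gene, was at 410 and 357 in ar21 against 54.9 and 92.4 in WT, with a log2 fold change of 2.41 ± 0.22 (adjusted p = 5.95e-05). AT5G19120, of the same family, was at 373 and 385 in ar21 against 101 and 56.0 in WT (2.32 ± 0.21, adjusted p = 5.95e-05). The subtilase gene ATSBT1.1 (AT1G01900), of a family of serine proteases, was at 1092 and 862 in ar21 against 251 and 395 in WT (1.62 ± 0.19, adjusted p = 0.000269). Aspartyl protease calls were 5 higher without ar21 replicate 1 or 2. The lower one, AT2G36670, lost its call when any 1 of the 4 libraries was left out. Serine carboxypeptidase-like calls were 2 higher without ar21 replicate 1 and 3 without ar21 replicate 2, 1 was lower without WT replicate 1, as was 1 at an unadjusted p below 0.05, and edgeR and DESeq2 on 5 libraries gave 2 higher and 0 lower.

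Families of specialised metabolism and detoxification were called in both directions. Cytochromes P450, oxidases of many small molecules, had 12 of 88 higher and 12 lower, 13.6% each way against 8.83% higher and 5.63% lower over all nuclear genes. AT5G08250 was at 96.5 and 141 in ar21 against 45.1 and 28 in WT (1.69 ± 0.25, adjusted p = 0.00127), and CYP71A26 (AT3G48270) at 113 and 83.4 in ar21 against 234 and 291 in WT (-1.42 ± 0.18, adjusted p = 0.000408). Glutathione transferases had 6 of 32 higher and 5 lower, with ATGSTU4 (AT2G29460) at 22.1 and 18.3 in ar21 against 71.9 and 56.0 in WT (-1.61 ± 0.29, adjusted p = 0.00349). GSL-OH (AT2G25450), an oxygenase that adds a hydroxyl group to glucosinolate side chains, was at 1192 and 973 in ar21 against 432 and 333 in WT. Its log2 fold change was 1.5 ± 0.16 (adjusted p = 0.000169). The P450 calls were 2 higher and 4 lower without ar21 replicate 1 and 4 and 4 without ar21 replicate 2. Transferase calls were 1 and 1 without ar21 replicate 1, 3 and 1 without ar21 replicate 2, and 3 lower without WT replicate 1 or 2 lower without WT replicate 2.

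Some families had medians below 0. Of 140 pentatricopeptide repeat genes, whose proteins bind organelle RNA and act in its editing, splicing and stability, 12 fell and 1 rose, and 42 lay above 0. These shares, 8.57% lower and 0.714% higher, compare with 5.63% and 8.83% of all nuclear genes. Their median was -0.27, against 0.02 over all nuclear genes. The number that fell was 2 without ar21 replicate 1 and 3 without ar21 replicate 2. The rise was lost without either of these or WT replicate 1, and there were 2 rises without WT replicate 2. NB-ARC and TIR genes, which encode intracellular immune receptors, had 7 of 54 lower and 0 higher at a median of -0.28, with 1 lower without ar21 replicate 1 and 2 without ar21 replicate 2. Rises numbered 2 there at an unadjusted p below 0.05 and 0 in edgeR and DESeq2, which on 5 libraries called 2 and 1 lower. The share of NB-ARC and TIR genes that fell was 13.0%, against 5.63% of all nuclear genes. Among 68 transposable element genes 8 fell (11.8%) and 3 rose (4.41%, against 8.83% of all nuclear genes). Of these, AT2G12490 was at 44.2 and 20.5 in ar21 against 152 and 101 in WT (-2.0 ± 0.36, adjusted p = 0.00346). That family had 1 higher and 2 lower calls without ar21 replicate 1, 1 lower without ar21 replicate 2, and 7 higher and 4 lower without WT replicate 1.

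In transcription factor families the share of calls lay below the 14.5% of all nuclear genes, apart from AP2/ERF factors. Median levels were 44.4 normalised counts for basic helix-loop-helix, 54.6 for MYB-type, 73.4 for homeobox and 54.0 for AP2/ERF factors. Genes at such levels were called less often than abundant ones, and the part of level in these shares was not tested. Basic helix-loop-helix factors had 1 of 60 higher and 2 lower, MYB-type factors 4 of 104 and 6, homeobox factors 4 of 59 and 3, and AP2/ERF factors 4 of 50 and 6. DREB2G (AT5G18450), an AP2/ERF factor of the group known from drought responses, was at 23.1 and 23.4 in ar21 against 101 and 84.0 in WT. Its log2 fold change was -1.94 ± 0.29 (adjusted p = 0.00124). IAA32 (AT2G01200), an atypical member of the Aux/IAA repressors of auxin responses, was at 13.1 and 16.1 in ar21 against 97.5 and 70.0 in WT (-2.43 ± 0.28, adjusted p = 0.000278). GRXC11 (AT3G62950), a glutaredoxin, was at 45.2 and 54.2 in ar21 against 12.2 and 2.80 in WT, and its log2 fold change of 2.83 ± 0.49 (adjusted p = 0.00278) was 1.94 without WT replicate 2 and 3.73 without WT replicate 1. Without ar21 replicate 1 the numbers higher and lower were 0 and 0 for helix-loop-helix, 0 and 1 for MYB-type, 0 and 0 for homeobox and 0 and 2 for AP2/ERF factors. With ar21 replicate 2 left out instead they were 0 and 0, 1 and 0, 0 and 0, and 1 and 2 in the same order. Leaving out WT replicate 1 gave 2 higher helix-loop-helix and 10 higher MYB-type factors, and leaving out WT replicate 2 gave 1 lower helix-loop-helix, 7 higher and 2 lower MYB-type and 0 lower homeobox factors.

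**Figure D3:**
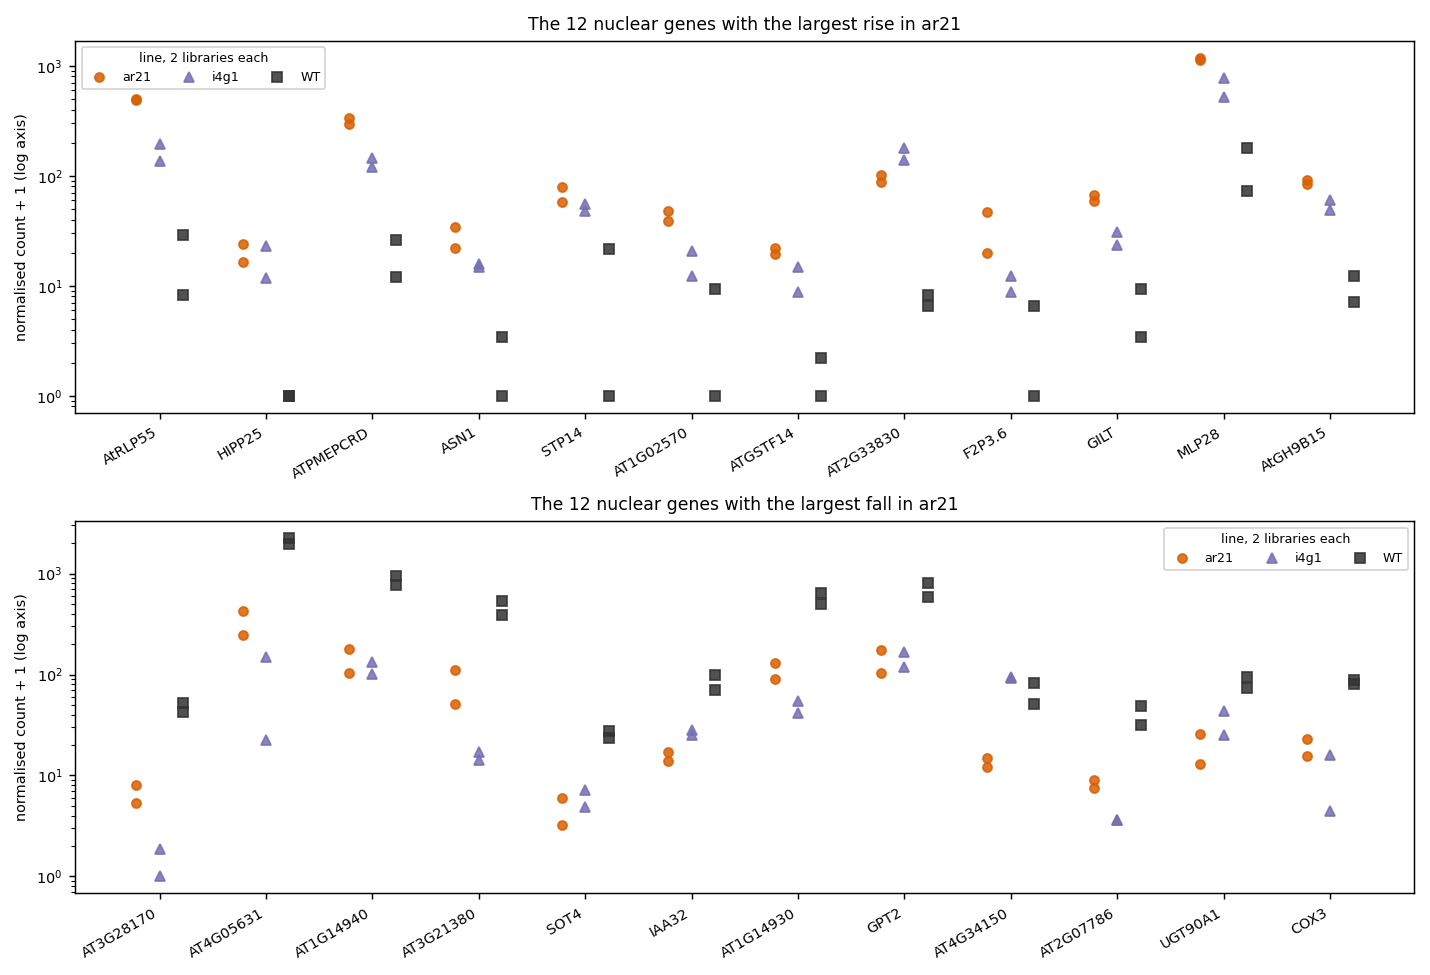
Normalised count plus 1 (log axis) in each ar21, i4g1 and WT library for the 12 nuclear genes with the largest rise and the 12 with the largest fall in ar21 among those called. The 24 genes were taken only from those whose ar21 libraries both lie on one side of both WT libraries. Among the genes that rose the WT points run from 0 counts in HIPP25 to 71.9 and 179 in MLP28.

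Among single genes, the largest rise was that of AtRLP55 (AT5G45770, chromosome 5, 18563333 to 18564921, + strand), a receptor-like protein with leucine-rich repeats. It was at 492 and 502 in ar21 against 7.31 and 28 in WT. The groups were far apart, with a log2 fold change of 5.0 ± 0.41 (adjusted p = 3.22e-05) that was 4.10 without WT replicate 1 and 5.91 without WT replicate 2. HIPP25 (AT4G35060), of a family with a heavy-metal-binding domain, was at 23.1 and 15.4 in ar21 and at 0 in both WT libraries. Set against a floor of 3 reads per WT library, a mean of 6.03 normalised counts, it was at least 3.19-fold higher. GILT (AT4G12960), annotated as a thiol reductase, was at 65.3 and 58.6 in ar21 against 2.44 and 8.40 in WT, with a log2 fold change of 3.47 ± 0.44 (adjusted p = 0.000498) that was 2.74 without WT replicate 1 and 4.19 without WT replicate 2. MLP28 (AT1G70830), of the major latex protein family, was at 1185 and 1121 in ar21 against 71.9 and 179 in WT, and its log2 fold change of 3.33 ± 0.31 (adjusted p = 6.02e-05) was 2.68 and 3.98 without these libraries in turn. ASN1, STP14, AT1G02570, ATGSTF14 and F2P3.6 were also among the 12 largest rises, but each lost its call without ar21 replicate 1 (adjusted p up to 0.179), STP14 and AT1G02570 also without ar21 replicate 2. Of these 5 genes, STP14 varied most with the WT libraries, with a log2 fold change of 6.08 without WT replicate 1 and 1.64 without WT replicate 2.

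On the lower side, GPT2 (AT1G61800, chromosome 1, 22824414 to 22826902, + strand), the carrier that brings glucose 6-phosphate into plastids, was at 173 and 102 in ar21 against 591 and 804 in WT. Its libraries did not overlap, and the log2 fold change was -2.36 ± 0.24 (adjusted p = 0.000107). UGT90A1 (AT2G16890), a glycosyltransferase, was at 12.1 and 24.9 in ar21 against 93.9 and 72.8 in WT (-2.19 ± 0.36, adjusted p = 0.00229). The lectin gene AT3G21380 was at 110 and 49.8 in ar21 against 531 and 389 in WT (-2.61 ± 0.31, adjusted p = 0.000282). AT4G34150, whose product has a calcium-dependent lipid-binding domain, was at 11.1 and 13.9 in ar21 against 81.7 and 50.4 in WT (-2.28 ± 0.27, adjusted p = 0.000313). AT3G28170, AT4G05631 and SOT4 were among the 12 largest falls as well, and each lost its call without ar21 replicate 2 (adjusted p up to 0.0972), AT3G28170 also without ar21 replicate 1 and AT4G05631 also without WT replicate 1.

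Of those 12 falls, AT2G07786 and COX3 (AT2G07687) are nuclear copies of mitochondrial sequence. AT2G07786 was at 8.04 and 6.59 in ar21 against 30.5 and 47.6 in WT, and COX3 at 22.1 and 14.6 in ar21 against 79.2 and 86.8 in WT. Reads from the mitochondrial genome can fall to such copies, so these values are uncertain, and both calls were lost without ar21 replicate 1, ar21 replicate 2 or WT replicate 2. In all, 18 tested loci matched an organelle genome at 95% identity or more over at least 50% of the transcript. All 18 lie on chromosome 2, their median log2 fold change was -1.32, and 5 were called lower. Without them 864 nuclear genes were lower.

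Called genes sometimes stood side by side. Of 7861 pairs of neighbouring genes with both tested, both were higher in 78, both lower in 35, and the calls were opposite in 75. With 8.83% of all nuclear genes higher and 5.63% lower, some such pairs arise among unrelated genes, and an excess was not tested. AT1G14930 and AT1G14940, neighbours on chromosome 1 of the major latex protein family, were both among the 12 largest falls. AT1G14940 (5154537 to 5155564, - strand) was at 177 and 102 in ar21 against 937 and 770 in WT (-2.65 ± 0.23, adjusted p = 3.91e-05), and AT1G14930 (5152263 to 5153104, - strand) at 129 and 88.6 in ar21 against 639 and 501 in WT (-2.40 ± 0.21, adjusted p = 4.58e-05). Their transcripts are 80.7% identical over the longer one. Other neighbours called together, chosen after their values were seen, were GASA3 and GASA2, small peptides known from gibberellin responses, with log2 fold changes of -2.11 and -2.08, and the sucrose carrier genes SUC1 and SUC5 with 2.44 and 1.98.

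Motif shares differed between called groups, which is a description of these windows and not of any factor. A telo-box lay near 11.1% of the starts of genes called higher, 3.86% of those called lower and 5.79% of all nuclear genes tested. Without the cytosolic ribosomal protein genes the share among higher genes was 7.35%. A G-box lay near 9.40% of higher, 16.9% of lower and 9.62% of all tested genes, and the RY element (CATGCA), known from seed maturation genes, near 9.62%, 15.0% and 8.20%. For the I-box the shares were 19.5% of higher, 12.1% of lower and 14.7% of all tested genes, and for the sugar-response element TATCCA, which overlaps the reverse I-box, 20.2%, 16.6% and 16.4%. Site II elements lay near 29.2% of higher, 21.2% of lower and 27.9% of all tested genes, and near 23.8% of the higher genes without the cytosolic ribosomal protein genes. W-boxes (TTGACC or TTGACT), heat shock elements (GAANNTTC) and evening elements (AAAATATCT) differed by less than 3 percentage points between higher and lower genes.

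**Figure D4:**
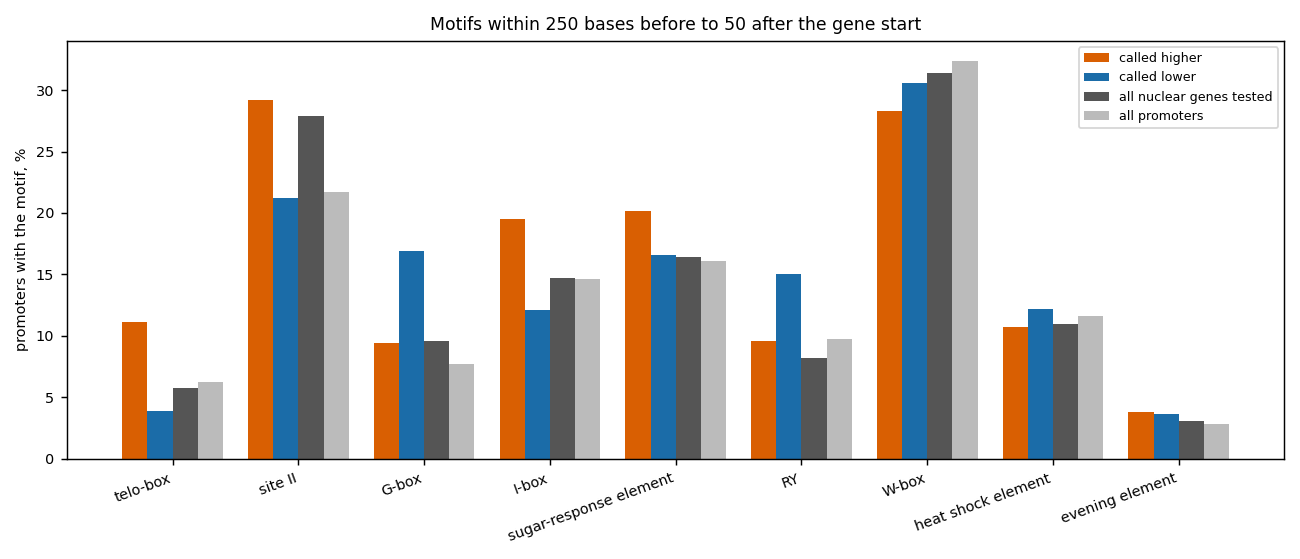
Percent of genes with each of 9 motifs on either strand within 250 bases before to 50 bases after the annotated start, for genes called higher in ar21, genes called lower, all nuclear genes tested and all promoters of the annotation. Telo-boxes and I-boxes were more frequent among higher genes, G-boxes and RY elements among lower genes.

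Against i4g1, ar21 seeds differed at few nuclear genes. Limma called 40 of 15422 (0.259%), 14 higher and 26 lower in ar21. The number was 2 without ar21 replicate 1, 2 without ar21 replicate 2, 6 without i4g1 replicate 2 and 94 without i4g1 replicate 1. AT4G34150 was the named gene whose difference kept its call in each of these, at 11.1 and 13.9 in ar21 against 93.5 and 90.7 in i4g1, a log2 difference of -2.80 ± 0.27 (adjusted p = 0.0041). For cytosolic ribosomal protein genes the median log2 difference between ar21 and i4g1 was 0.03 in the large and 0.09 in the small subunit. The summed level of large-subunit genes was 80603 and 71225 in ar21 against 79970 and 69242 in i4g1.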

How the data were processed

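The authors deposited a signal per locus and library, which is a count of reads scaled by the size factor of its library, in 6 libraries. The submitters' processing notes name HTSeq 0.6.0, STAR 2.4.0j, DESeq2 1.12.4, StringTie 1.0.3 and TAIR10, with no role or parameter, and do not say whether reads were assigned by strand. Per the labels, libraries were made with TruSeq RNA v2, whose usual protocol does not mark strand. Overlapping genes (28 of the 138 named) therefore cannot be told apart where they overlap. Besides those marked above they include AT5G24490, LHCB2.4, LQY1, AT1G56100, AT4G25260, AT1G09750, ATSBT1.1, AT1G62510, GLIP6, ALPHA-TIP, IAA32 and AT4G34150. Values were whole multiples of 1 step per library within 0.001 (100% of values), which gave back whole reads. In ar21 replicate 1 the step was 1.00476, close to 1, and this library was left out of the count fits on 5 libraries. Counting error only stands behind any statement on reads.

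On the scale log2(normalised count + 1), limma 3.58.1 (R 4.3.3) was fitted to 6 libraries at once, with an intensity trend and a mean of at least 10 (15591 loci of all genomes). Two-sided p-values were adjusted over all 15591 by Benjamini and Hochberg, with a threshold of 0.05; fold changes on this scale understate those of low genes. Errors are SE from limma. The spread behind these errors and the p-values was pooled over all lines and moderated along the intensity trend. The i4g1 libraries thus set part of the error for ar21 against WT. As alternatives, edgeR 4.0.16 and DESeq2 1.42.0 were run on recovered reads of 5 libraries, which leaves out ar21 replicate 1, with edgeR on 6 libraries added after seeing the data; other settings of pseudocount, filter, scaling, replicate block and left-out libraries were also run. The limma fit was also run on simulated counts with known folds, as a check of the procedure that bears on no call here. Families are keyword groups of the annotation strings in the table; 62 had at least 8 tested genes, and 4345 nuclear genes fell in a family. Genes named are the 12 largest rises and falls among called genes with both ar21 libraries on one side of both WT libraries. Also named are up to 2 per direction in families called at 1.5 times the background or more. The others are 1 in each other family and the eIFiso4G genes. Gene coordinates, promoters (27444) and transcript identity (blastn 2.17.0) come from RefSeq TAIR10.1, with 15397 of 15422 genes matched. Members, families, motifs and markers were chosen with earlier results of these data known.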

Additional observations from a re-analysis of the deposited data

Results flagged for a closer look

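Some genes that differed between ar21 and WT also differed between the mutant lines, by limma's test of ar21 against i4g1 over all loci. The log2 difference of ar21 minus i4g1 was 2.27 for AT3G21380 (110 and 49.8 in ar21, 13.1 and 16.1 in i4g1; adjusted p = 0.0108), and this call was lost without ar21 replicate 1 or i4g1 replicate 2 (adjusted p up to 0.114). AT1G14930 had a difference of 1.17 (129 and 88.6 in ar21, 54.2 and 40.8 in i4g1; adjusted p = 0.0428), a call lost without ar21 replicate 1 or 2, WT replicate 1 or i4g1 replicate 2 (up to 0.582). AT4G34150 had a difference of -2.80 (adjusted p = 0.0041), kept in every library left out (up to 0.0484). In the germin-like genes GLP2A and AT5G39130 the differences were 0.82 (adjusted p = 0.0337) and 0.80 (adjusted p = 0.0329), and both calls were lost without ar21 replicate 1 or 2, that of GLP2A also without i4g1 replicate 1 and that of AT5G39130 also without i4g1 replicate 2 (up to 0.460). eIFiso4G1 had a difference of 1.80 (adjusted p = 0.0108), lost without ar21 replicate 1 or 2 (up to 0.118).

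Assembled transcripts lie outside the nuclear genes compared here, and some were also higher in ar21. CUFF.1017.1 was at 48.2 and 52.7 in ar21 against 3.66 and 0 in WT, with a log2 fold change of 4.57 (adjusted p = 0.000448). The transcript listed as AT4G38080 was at 2226 and 3448 in ar21 against 1586 and 1714 in WT (log2 fold change 0.75, adjusted p = 0.0292). The transcript listed as AT1G22110 was at 141 and 127 in ar21 against 85.3 and 78.4 in WT (log2 fold change 0.70, adjusted p = 0.0126).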

How the results depend on the processing

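Over 17 other settings no named gene changed sign where it was tested (78 of the 138 at a mean of at least 50, and in DESeq2 those with an adjusted p), and eIFiso4G1 kept its call in each. With 1 library left out, or at another pseudocount or filter, the sign was fixed in advance, since the groups of every called gene do not overlap. With 1 library left out in turn, 335 to 1366 nuclear genes were higher, 158 to 922 lower and 310 to 879 changed at least 2-fold, and 25 to 31 families had a share of calls of 1.5 times the background or more. The lowest counts came without ar21 replicate 1, with 335 higher, 158 lower and 310 changed 2-fold, and without ar21 replicate 2, with 566 higher and 255 lower; a line then has 1 library, assumed to vary like the others. On 5 libraries, edgeR called 413 higher and 222 lower (379 at least 2-fold) and DESeq2 234 and 118 (222 at least 2-fold), against 1362 and 869 (677) in limma. At a mean of at least 50 the genes changed 2-fold numbered 375, since fewer genes were tested. Of the 138 named genes, 69 kept their call without ar21 replicate 1, 79 without ar21 replicate 2, 86 with edgeR on 5 libraries, 131 with edgeR on 6 and 52 with DESeq2, where 45 lost it. With a replicate block limma called 1444 higher and 930 lower, and 134 of the 138 named genes kept their call. Deviations of same-numbered libraries correlated at -0.07, 0.09 and 0.00 in the 3 pairs of lines. A correlation over all genes cannot decide whether same-numbered libraries shared a harvest or preparation, which was not tested. Depth limits low genes most in WT replicate 2, with 1205780 nuclear reads.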
